A study of Mus musculus with 6 samples.

Results

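Glycolysis splits glucose into pyruvate in the cytosol, lactate dehydrogenase turns pyruvate into lactate, and monocarboxylate transporters carry lactate out of the cell. Several steps are served by paralogous enzymes, called isoforms here, that differ in kinetics and in the tissues that use them. Mature mouse beta cells take up glucose through Slc2a2 and are known for keeping Hk1, Ldha and Slc16a1 low. The genes described here are 32 genes of glycolysis, glycogen metabolism, and glucose and lactate transport, found by gene name in a table of 54532 mouse genes. They matched 33 rows, because the name Aldoa stands on a pair of rows.

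The study sequenced RNA of 6 libraries labelled MIN6, a mouse insulinoma line used as a beta cell model: 3 PP2Ac knockdown libraries, all with the label sh2, and 3 control libraries with the label shc. PP2Ac is the catalytic subunit of protein phosphatase 2A. The labels name no further treatment and do not say whether the libraries of a group came from separate cultures, so p-values measure the spread between these libraries, which may be technical. Values are FPKM, reads scaled for gene length and library depth, and the libraries held 14614737 to 16030939 reads. A gene was tested when its mean over the 6 libraries was at least 1 FPKM. A gene is said to have risen or fallen in knockdown where the adjusted p from limma was under 0.05, and log2 fold changes are on log2(FPKM + 1).

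The catalytic subunit gene Ppp2ca had 10.1 to 11.4 FPKM in knockdown and 34.6 to 42.5 FPKM in control, or 28.7% of the control mean. Its paralogue Ppp2cb, the more abundant, had 86.9 ± 3.45 FPKM in knockdown and 101 ± 10.6 FPKM in control (SD, n = 3 each). Ppp2cb did not pass (limma adjusted p = 0.0660), and the labels do not say which of these genes was targeted. Most beta cell markers were absent or low: of 16 on the list, 14 averaged under 1 FPKM and 9 were at 0 in all libraries, among them Ins1, Ins2, Nkx6-1 and Slc2a2. The pair above 1 FPKM rose: Mafa averaged 4.86 FPKM in knockdown and 1.78 FPKM in control, and Pdx1 3.96 FPKM in knockdown and 1.68 FPKM in control (limma adjusted p = 0.000344 and 0.000802). The whole list summed to 8.19 to 9.85 FPKM in knockdown and 3.01 to 4.70 FPKM in control. Libraries labelled as a beta cell model thus held no reads of the insulin genes Ins1 and Ins2, and the identity of the cells was not tested. Markers of other cells differed between the groups. The summed level of 6 mesenchymal markers was 999 to 1140 FPKM in knockdown and 413 to 471 FPKM in control. Most of it was Vim, with a mean of 952 FPKM in knockdown and 426 FPKM in control. Col1a1 averaged 86.9 FPKM in knockdown and 9.95 FPKM in control, and Col3a1 31.7 FPKM in knockdown and 0.834 FPKM in control. The summed level of 5 duct markers was 352 to 392 FPKM in knockdown and 681 to 849 FPKM in control, nearly all of it Spp1. The 4 immune markers summed to 2.01 to 2.62 FPKM in knockdown and 14.3 to 20.9 FPKM in control, mostly Cd68. The part of these markers in the results below was not tested, and in bulk RNA fewer cells of a type and less RNA per cell cannot be told apart.

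Most abundant glycolytic enzymes were higher in knockdown, while the glucose transporter Slc2a1 and the lactate transporter Slc16a1 were lower. Ldha, Pgk1, Pgam1, Tpi1, Aldoa, Gpi1 and Eno1 rose to between 1.38-fold and 2.05-fold of the control mean. Slc2a1, the basal glucose transporter, fell to 0.584-fold and Slc16a1 to 0.588-fold of control, while the lactate transporter Slc16a3 did not pass. At 3 steps the isoforms went opposite ways: Hk1 rose and Hk2 fell, Pfkl and Pfkm rose and Pfkp fell, Eno1 rose and Eno2 fell. Of 27 rows with a mean of at least 1 FPKM, 15 rose, 7 fell and 5 did not pass. Over all 11652 genes tested, 62.4% passed, 33.3% upward and 29.1% downward, so a call on a single member is common in these data. The groups did not overlap for 24 of the 27 rows, against 68.1% of all genes tested. The median log2 fold change was 0.37 for the 27 rows and 0.03 for all genes. The other 6 rows, Slc2a3, Pfkfb1, Pfkfb3, Aldoc, Ldhb and Pygl, averaged under 1 FPKM and are described by their values.

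**Figure D1:**
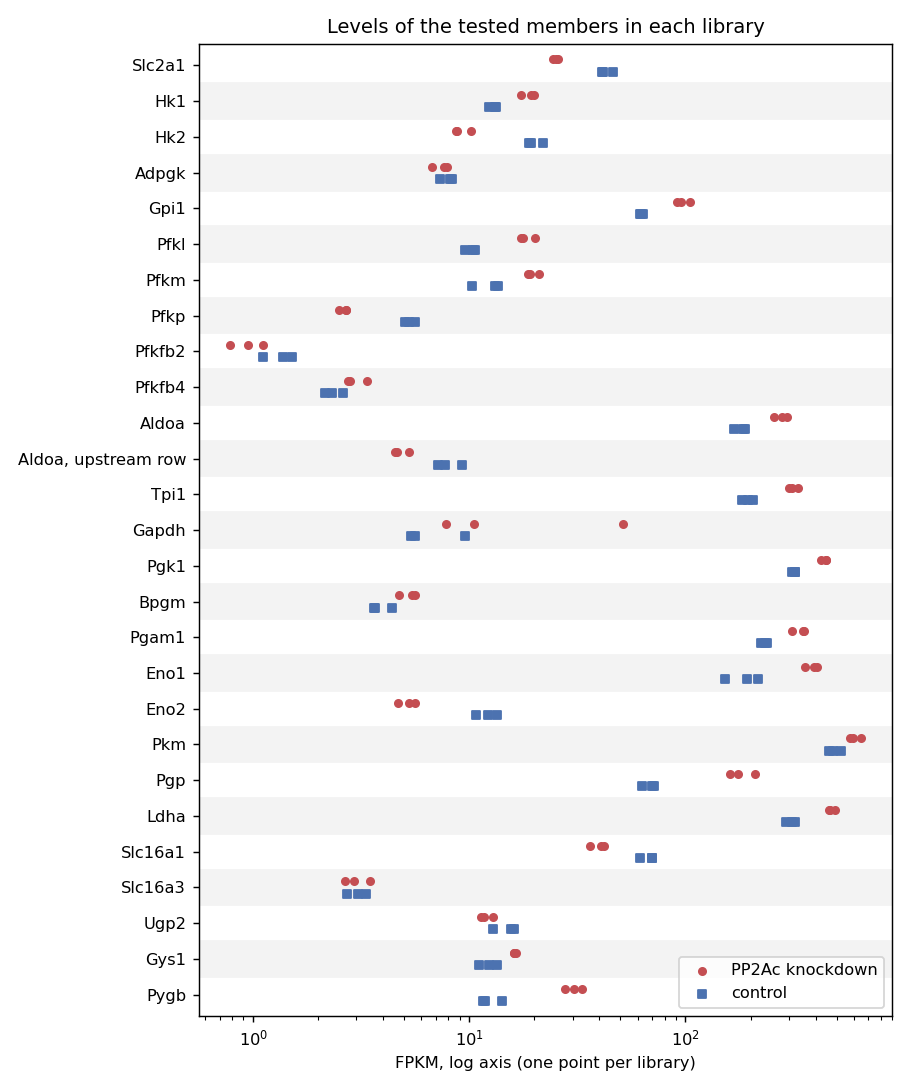
FPKM of the 27 tested rows in each library on a log axis, in pathway order from glucose entry to glycogen, with PP2Ac knockdown as circles above control as squares. The abundant enzymes from Gpi1 to Ldha lie right of their control points, Slc2a1, Hk2, Pfkp, Eno2 and Slc16a1 lie left of them, and a single knockdown library carries the high Gapdh value of 51.3 FPKM.

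Direction differed with abundance among the members. Split at a mean of 50 FPKM, a value chosen after the levels were seen, 9 of the 10 more abundant rows rose and 1, Slc16a1, fell. Of the 17 less abundant rows, 6 rose, 6 fell and 5 did not pass. Over all genes, 445 of the 1123 at or above that mean rose and 292 fell (median log2 fold change 0.09). Of the 10529 below it, 3434 rose and 3096 fell (median 0.02). At the deposited scaling, abundant genes thus leaned upward in general too.

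Glucose entry was carried by a single member. Slc2a1 (ENSMUSG00000028645, chromosome 4, 119108711 to 119137983, plus strand, GRCm38) had 25.6, 25.1 and 24.4 FPKM in knockdown, against 41.5, 46.0 and 41.2 FPKM in control. All 3 knockdown libraries lay below all 3 control libraries, a log2 difference of -0.75 with an SE of 0.0689 (limma adjusted p = 5.09e-05). Slc2a3, a high-affinity glucose transporter of neurons, was at 0 in every library, where 3 reads would have given at most 0.0277 FPKM.

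Hexokinases, which trap glucose in the cell by phosphorylating it, changed places. Hk1 (ENSMUSG00000037012, chromosome 10, 62268855 to 62379908, minus strand), the form found in most tissues, had 19.3, 19.8 and 17.3 FPKM in knockdown, against 13.3, 12.4 and 13.2 FPKM in control. Hk2 (ENSMUSG00000000628, chromosome 6, 82725025 to 82774454, minus strand), the form known from muscle and many tumours, had 8.77, 8.65 and 10.2 FPKM in knockdown, against 21.8, 19.2 and 18.8 FPKM in control. The lowest library of one group stood above the highest of the other for both genes, in opposite directions. Hk1 had a log2 fold change of 0.50 (SE 0.0745, limma adjusted p = 0.000564) and Hk2 one of -1.04 (SE 0.0882, limma adjusted p = 3.6e-05).

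As a share of the summed FPKM of the pair, Hk1 held 67.1% ± 3.62 in knockdown and 39.4% ± 1.68 in control (SD, n = 3 each), so the more abundant form differed between the groups. Their sum differed less than either gene, with 27.97 ± 0.512 FPKM in knockdown and 32.9 ± 1.95 FPKM in control, a ratio of 0.850, or -0.23 on the log2 scale against -0.11 counted as reads. These shares and sums were set against the libraries by a two-sided exact permutation test, which cannot go below p = 0.1 with 3 against 3 libraries. Of 19 isoform shares in 8 groups of paralogues, 14 did not overlap between knockdown and control and reached that floor (0.136 after adjustment over the 19). These include the aldolase shares, which differ by only 0.0989 percentage points and rest on 16 to 35 Aldoc reads per library. Aldoa, with both rows of that name pooled, held 99.84% in knockdown and 99.74% in control. The aldolase sum pools both rows too. Among all genes tested, 68.1% did not overlap, and the shares of a pair repeat each other because they sum to the whole. All 9 summed steps also reached that floor (0.1 after adjustment over the 9), so neither shares nor sums can pass 0.05 by design. The sums of glucose transporter, lactate dehydrogenase and glycogen phosphorylase were almost only Slc2a1, Ldha and Pygb.

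The promoters of Hk1 and Hk2 and of the fallen carriers Slc2a1 and Slc16a1, with that of Ldha, are shown because these genes share a pathway and moved in opposite directions. Each is a RefSeq window on GRCm38.p6 of 250 bases before to 50 bases after a start site, the one nearest to the gene's start in the table, read 5′ to 3′ along the gene. Capitals mark ACGTG, the core of the element that HIF factors bind, on either strand. It overlaps the E-box CACGTG, which holds it on both strands. Slc2a1 is chr4:119108495-119108794 on the plus strand, Hk2 chr6:82774405-82774704 on the minus strand, Hk1 chr10:62379859-62380158 on the minus strand, Ldha chr7:46845554-46845853 on the plus strand and Slc16a1 chr3:104638414-104638713 on the plus strand.
Slc2a1: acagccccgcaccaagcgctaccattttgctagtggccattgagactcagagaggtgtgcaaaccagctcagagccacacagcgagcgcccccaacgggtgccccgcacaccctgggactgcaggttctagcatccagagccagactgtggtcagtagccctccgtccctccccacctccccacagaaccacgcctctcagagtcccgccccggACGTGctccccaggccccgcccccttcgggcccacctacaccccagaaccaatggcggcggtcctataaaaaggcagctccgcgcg
Hk2: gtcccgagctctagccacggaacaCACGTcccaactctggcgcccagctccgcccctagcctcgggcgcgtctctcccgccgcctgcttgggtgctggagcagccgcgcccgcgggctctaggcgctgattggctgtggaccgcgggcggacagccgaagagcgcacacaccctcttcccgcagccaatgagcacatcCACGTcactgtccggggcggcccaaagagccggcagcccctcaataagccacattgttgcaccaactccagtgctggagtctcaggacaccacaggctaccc
Hk1: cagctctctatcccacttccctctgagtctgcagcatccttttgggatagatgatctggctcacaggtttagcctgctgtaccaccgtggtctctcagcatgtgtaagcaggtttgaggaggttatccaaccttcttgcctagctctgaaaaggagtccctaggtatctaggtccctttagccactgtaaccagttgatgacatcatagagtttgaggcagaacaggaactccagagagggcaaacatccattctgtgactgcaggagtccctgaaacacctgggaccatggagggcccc
Ldha: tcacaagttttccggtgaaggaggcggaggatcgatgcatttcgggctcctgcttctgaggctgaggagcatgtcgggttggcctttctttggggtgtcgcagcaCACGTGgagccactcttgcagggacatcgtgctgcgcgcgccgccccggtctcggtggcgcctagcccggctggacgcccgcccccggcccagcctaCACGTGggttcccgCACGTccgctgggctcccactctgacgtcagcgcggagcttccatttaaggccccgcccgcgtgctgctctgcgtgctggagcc
Slc16a1: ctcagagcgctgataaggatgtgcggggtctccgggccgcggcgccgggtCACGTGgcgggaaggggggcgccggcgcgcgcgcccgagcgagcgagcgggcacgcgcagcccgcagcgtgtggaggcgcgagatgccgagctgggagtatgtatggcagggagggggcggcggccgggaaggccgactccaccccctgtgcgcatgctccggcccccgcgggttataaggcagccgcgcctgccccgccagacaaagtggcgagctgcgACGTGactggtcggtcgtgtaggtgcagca

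A window was given for 31 of the 32 genes. Some genes had more than 1, among them Hk1 and Ldha with 2 each and Pfkm with 4. Only the window nearest to the gene's start was searched, so the counts of members leave out other start sites. ACGTG was found in 15 of these 31 windows, or 48.4%, and in 19.6% of all 32851 windows. It stood in 5 of the 15 windows of genes that rose, those of Pfkm, Pgk1, Pgam1, Ldha and Pygb, while the Hk1 window held none. Among genes that fell, it stood in 4 of 6 windows, those of Slc2a1, Hk2, Slc16a1 and Ugp2, and not in those of Pfkp and Eno2. It also stood in 3 of the 5 windows of genes that did not pass and in 3 of the 5 of genes not tested. CACGTG was found in 3 windows, those of Pfkm, Ldha and Slc16a1, or 9.68%, against 7.15% of all windows. Base composition differed too, with a median GC content of 60.7% in the 31 windows and 52.7% in all. Letter matches describe these windows only, and whether any factor binds them was not tested.

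Phosphofructokinase, which commits sugar to glycolysis, had more of its liver and muscle forms and less of its platelet form. Pfkl (ENSMUSG00000020277, chromosome 10, 77986947 to 78010083, minus strand), the liver form, had 17.3, 20.2 and 17.7 FPKM in knockdown, against 10.4, 10.6 and 9.55 FPKM in control. Pfkm (ENSMUSG00000033065, chromosome 15, 98092589 to 98132451, plus strand), the muscle form, had 19.01, 20.9 and 18.6 FPKM in knockdown, against 10.3, 13.1 and 13.5 FPKM in control. Pfkp (ENSMUSG00000021196, chromosome 13, 6579768 to 6648777, minus strand), the platelet form, had 2.68, 2.68 and 2.50 FPKM in knockdown, against 5.60, 5.02 and 5.27 FPKM in control. None of the 3 genes had overlapping groups, and only Pfkp was the lower in knockdown.

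The log2 fold changes were 0.79 for Pfkl (SE 0.0807, limma adjusted p = 8.66e-05), 0.63 for Pfkm (SE 0.106, adjusted p = 0.00105) and -0.80 for Pfkp (SE 0.0796, adjusted p = 7.66e-05). Pfkp held 6.48% ± 0.378 of the summed FPKM in knockdown and 19.1% ± 1.95 in control (SD, n = 3 each). Pfkl held 45.3% ± 0.906 in knockdown and 36.7% ± 2.98 in control. The share of Pfkm was 48.2% ± 0.533 in knockdown and 44.1% ± 4.52 in control, a difference of 4.09 percentage points, or 1.54 without control replicate 1. Counted as reads and not per length, the long Pfkp weighed more: its share differed by -23.7 percentage points (knockdown minus control), against -12.7 in FPKM, and that of Pfkl by 17.2, against 8.57. Summed over the 3 genes, the step stood at 40.5 ± 2.82 FPKM in knockdown and 27.8 ± 1.30 FPKM in control, a ratio of 1.46, or 0.55 on the log2 scale against 0.29 counted as reads.

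**Figure D2:**
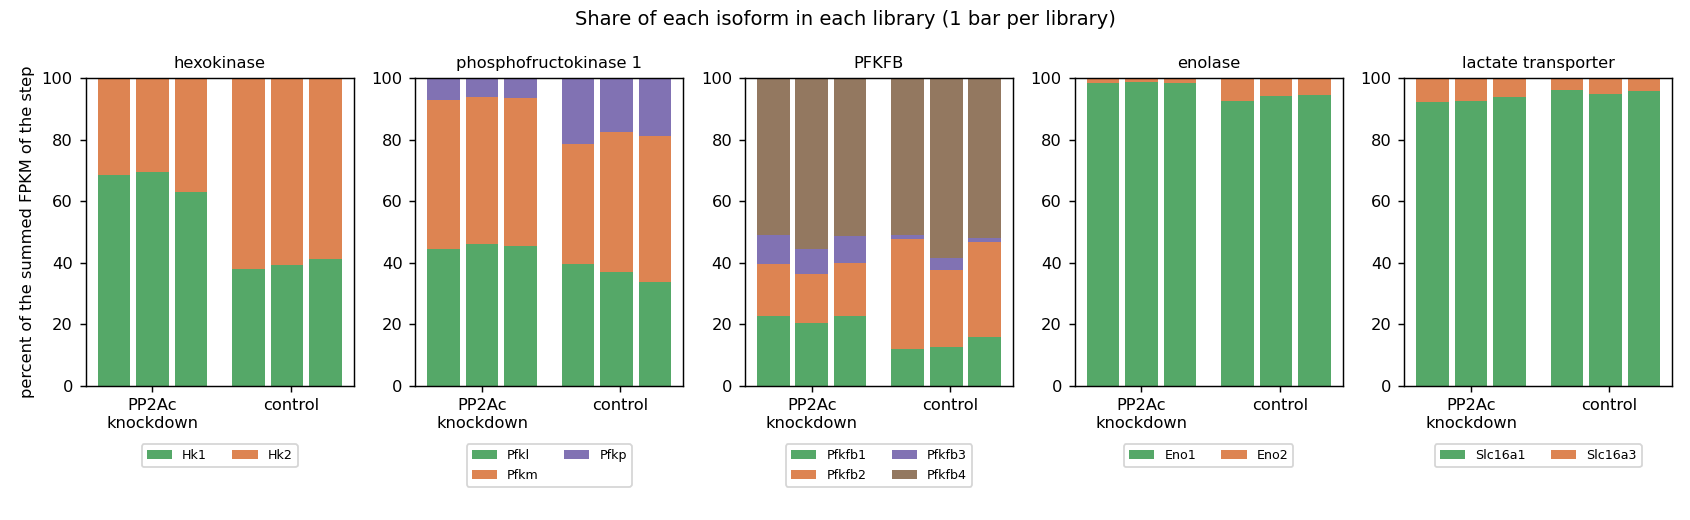
Percent held by each isoform of the FPKM summed over the member genes of a step (Eno3 is no member and is not in the enolase sum), 1 bar per library, PP2Ac knockdown left of control in each panel. Hk1 makes up 62.9% to 69.6% of hexokinase in knockdown and 37.9% to 41.2% in control, and the shares of Pfkp, Pfkfb2 and Eno2 are smaller in every knockdown bar.

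Next to phosphofructokinase act the bifunctional PFKFB enzymes, which make and remove its allosteric activator, and all 4 were low. Pfkfb4 had 2.95 ± 0.338 FPKM in knockdown and 2.35 ± 0.222 FPKM in control, and Pfkfb2 had 0.943 ± 0.161 FPKM in knockdown and 1.33 ± 0.206 FPKM in control (SD, n = 3 each). Neither passed (log2 fold changes 0.24 and -0.26, limma adjusted p = 0.0754 and 0.112). Over the alternative settings the adjusted p of Pfkfb2 ran from 0.0184, with voom on recovered reads, to 0.284.

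Pfkfb1 and Pfkfb3, both under 1 FPKM on average, were higher in each knockdown library. Pfkfb1, the form known from liver and muscle, had 92, 62 and 74 reads in knockdown, against 32, 35 and 46 reads in control. Pfkfb3, an inducible form with high kinase activity, had 72, 45 and 55 reads in knockdown, against 7, 21 and 8 reads in control. These 6 counts per gene do not overlap between groups. Tested without the filter on low values, their log2 fold changes were 0.50 (limma adjusted p = 0.0270) and 0.44 (limma adjusted p = 0.00854). Pfkfb3 thereby held 8.75% ± 0.765 of the PFKFB sum in knockdown and 2.28% ± 1.51 in control (SD, n = 3 each).

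Gpi1, the main Aldoa row and Tpi1, from the upper and middle steps of the pathway, rose by similar amounts. Gpi1 (ENSMUSG00000036427, chromosome 7), which converts glucose phosphate to fructose phosphate, had 95.0, 105 and 91.0 FPKM in knockdown, against 61.6, 63.5 and 62.2 FPKM in control. Aldoa (ENSMUSG00000030695, chromosome 7, 126795234 to 126800751, minus strand), the aldolase that splits the sugar, had 279, 294 and 258 FPKM in knockdown, against 184, 189.5 and 168 FPKM in control. Tpi1 (ENSMUSG00000023456, chromosome 6), which interconverts the resulting trioses, had 312, 333 and 300.5 FPKM in knockdown, against 206, 196 and 182 FPKM in control. Every knockdown value of these genes was above every control value. Their log2 fold changes were 0.63 for Gpi1 (SE 0.0735), 0.62 for Aldoa (SE 0.0819) and 0.69 for Tpi1 (SE 0.0778), with limma adjusted p of 0.000134 to 0.000314.

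The other row named Aldoa (ENSMUSG00000114515, chromosome 7, 126800790 to 126809108, minus strand) went the other way. It had 4.61, 5.23 and 4.52 FPKM in knockdown, against 7.12, 9.20 and 7.70 FPKM in control, a log2 fold change of -0.63 (SE 0.101, limma adjusted p = 0.000838). It lies 38 bases upstream of the main Aldoa row on the same strand. Aldoc, the brain form, had 25, 16 and 26 reads in knockdown and 35, 21 and 21 reads in control; tested without the filter on low values, it did not pass (log2 fold change -0.04, limma adjusted p = 0.801).

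Gapdh, which oxidises the triose and makes NADH, was read poorly. It had 10.5, 7.79 and 51.3 FPKM in knockdown, against 5.38, 9.51 and 5.60 FPKM in control, far under its neighbours in the pathway. The groups overlapped, and knockdown replicate 3 stood apart from the other 5 libraries. The difference did not pass (log2 fold change 1.19, SE 0.587, limma adjusted p = 0.109) and came to 0.40 without knockdown replicate 3 (adjusted p = 0.178). Gapdh passed without knockdown replicate 2 (adjusted p = 0.0373), with voom on recovered reads (0.0362) and among protein-coding genes only (0.0387). Gapdh has many near-identical pseudogenes, so reads may have been lost or shared in counting; this was not tested, and the gene is uncertain here.

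The later steps of glycolysis rose as well. Pgk1, which makes ATP from bisphosphoglycerate, had 439 ± 14.9 FPKM in knockdown and 319 ± 6.21 FPKM in control (SD, n = 3 each; log2 fold change 0.46, limma adjusted p = 0.000585). Pgam1 (ENSMUSG00000011752, chromosome 19), which moves the phosphate within phosphoglycerate, had 348, 354 and 312 FPKM in knockdown, against 223, 237 and 234 FPKM in control, a log2 fold change of 0.55 (SE 0.0770, limma adjusted p = 0.000432). Pkm, the pyruvate kinase that makes ATP in the final step, was the most abundant member, with 607 ± 37.6 FPKM in knockdown and 492 ± 32.5 FPKM in control. Its rise was the smallest of those that passed (log2 fold change 0.30, limma adjusted p = 0.0142). The call on Pkm was lost without knockdown replicate 2 (adjusted p = 0.0513), without control replicate 1 (0.0544) and with no filter on low values (0.0806). A gene table does not separate the spliced forms of Pkm.

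Enolase, the step before pyruvate kinase, had isoforms far apart in level that went opposite ways. Eno1 (ENSMUSG00000063524, chromosome 4, 150236721 to 150248879, plus strand), the general form, had 393, 407 and 357 FPKM in knockdown, against 153, 218 and 194 FPKM in control. Eno2 (ENSMUSG00000004267, chromosome 6, 124760053 to 124769673, minus strand), the neuronal and neuroendocrine form, had 5.59, 4.65 and 5.26 FPKM in knockdown, against 12.2, 13.5 and 10.7 FPKM in control. The log2 fold change was 1.05 for Eno1 (SE 0.128, limma adjusted p = 0.00021) and -1.09 for Eno2 (SE 0.0985, limma adjusted p = 4.87e-05), with no overlap between groups for either. Eno2 held 1.33% ± 0.174 of their sum in knockdown and 6.16% ± 1.11 in control (SD, n = 3 each). That sum leaves out the muscle form Eno3; with it counted, an alternative chosen after seeing the data, Eno2 held 1.03% ± 0.133 in knockdown and 3.91% ± 0.449 in control, and Eno1 76.7% ± 1.12 in knockdown and 60.1% ± 4.54 in control. Eno1b, a near-identical copy of Eno1 described below, is in neither sum. How reads were shared between Eno1 and Eno1b was not tested, so these shares are uncertain. Eno2 and Tpi1 lie 40912 bases apart on the same strand of chromosome 6, and one fell while the other rose.

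Several of these enzymes have near-identical copies in the table, so their levels are uncertain. Eno1b, a retrotransposed copy of Eno1, was listed at 445 ± 30.4 FPKM in knockdown and 218 ± 40.1 FPKM in control, close to Eno1 itself in level, and at 205% of control. Pgam1-ps2, Ldha-ps2 and Pgk1-rs7 stood at 168%, 190.4% and 164% of control and passed the test, with means of 10.9, 3.25 and 2.51 FPKM in knockdown and 6.53, 1.70 and 1.53 FPKM in control. Tpi-rs11 had 26.8 ± 4.08 FPKM in knockdown and 20.6 ± 6.04 FPKM in control (SD, n = 3 each) and did not pass (limma adjusted p = 0.118). How the reads of such copies were assigned was not tested.

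One lactate dehydrogenase gene reached a level that could be tested. Ldha (ENSMUSG00000063229, chromosome 7, 46841475 to 46855627, plus strand), whose enzyme turns pyruvate into lactate, had 467, 493 and 461 FPKM in knockdown, against 312, 319.7 and 292 FPKM in control. That is a log2 fold change of 0.62 (SE 0.0734, limma adjusted p = 0.000174), with no overlap. Ldhb, the form of heart and brain, had 3, 0 and 2 reads in knockdown and none in control, at the limit of detection, where 3 reads give at most 0.128 FPKM.

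The more abundant lactate transporter moved against Ldha. Slc16a1 (ENSMUSG00000032902, chromosome 3, 104638668 to 104658462, plus strand), a monocarboxylate transporter, had 42.1, 36.3 and 40.7 FPKM in knockdown, against 70.3, 61.9 and 70.3 FPKM in control, a log2 fold change of -0.75 (SE 0.0841, limma adjusted p = 0.000132). Slc16a3, the transporter typical of highly glycolytic cells, had 3.03 ± 0.413 FPKM in knockdown and 3.02 ± 0.298 FPKM in control (SD, n = 3 each). Its groups overlapped, and its log2 fold change of -0.001 had an SE of 0.107. The summed level of both carriers was 42.7 ± 3.20 FPKM in knockdown and 70.5 ± 4.61 FPKM in control, a ratio of 0.605.

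**Figure D3:**
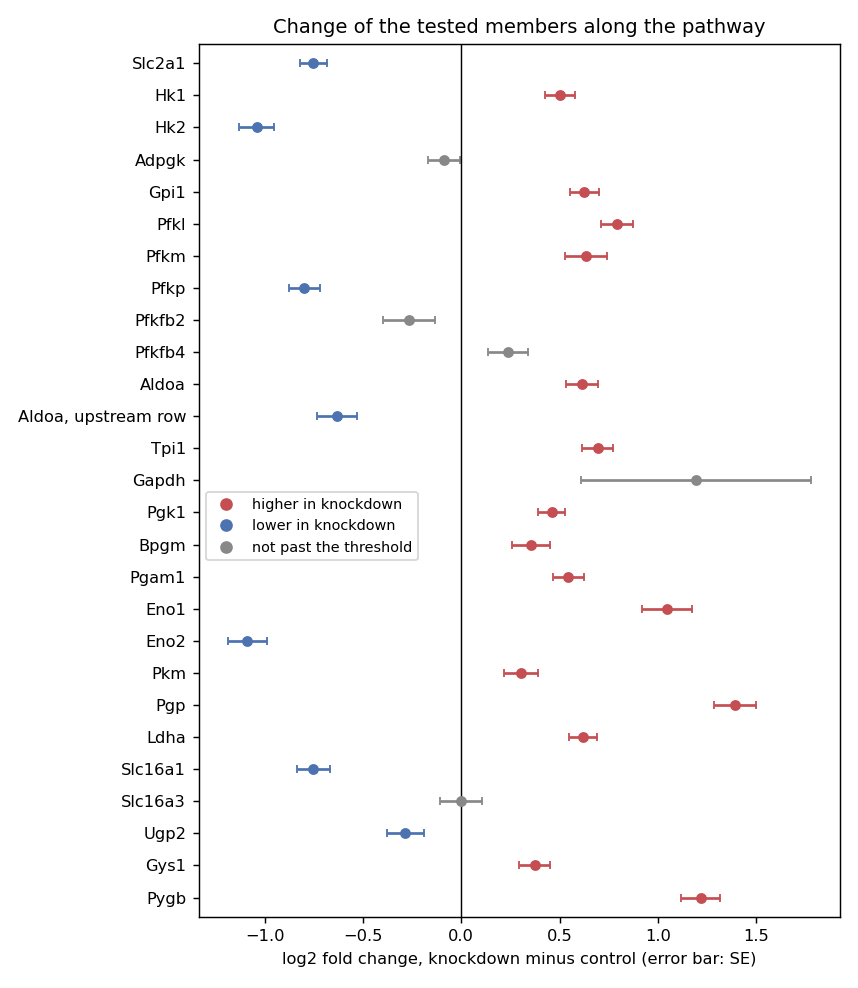
Log2 fold change (knockdown minus control on log2(FPKM + 1)) of the 27 tested rows in pathway order, with the SE from limma as error bar and colour for the call at an adjusted p of 0.05. "Aldoa, upstream row" is ENSMUSG00000114515. The rows that rose lie between 0.30 and 1.39, the carriers Slc2a1 and Slc16a1 both at -0.75, and Gapdh has by far the widest error bar.

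The side branches of glycolysis held the largest rise of any tested member. Pgp (ENSMUSG00000043445, chromosome 17, 24470473 to 24471591, plus strand), a phosphatase that clears phosphoglycolate and other side products of glycolysis, had 160.0, 209.6 and 175 FPKM in knockdown, against 62.9, 71.8 and 69.7 FPKM in control. For Pgp the log2 change was 1.39 (SE 0.107, limma adjusted p = 2.35e-05), and the groups were far apart. Bpgm, which makes the bisphosphoglycerate that regulates haemoglobin in red cells, had 5.25 ± 0.464 FPKM in knockdown and 3.89 ± 0.440 FPKM in control (SD, n = 3 each), a rise (log2 fold change 0.36, limma adjusted p = 0.0122). Adpgk, which phosphorylates glucose with ADP, had 7.41 ± 0.596 FPKM in knockdown and 7.93 ± 0.520 FPKM in control and did not pass (log2 fold change -0.09, SE 0.0828, limma adjusted p = 0.381).

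Among the 4 glycogen members, Pygb and Gys1 rose, Ugp2 fell and Pygl was nearly undetected. Pygb (ENSMUSG00000033059, chromosome 2, 150786735 to 150831758, plus strand), the brain form of glycogen phosphorylase, which releases glucose units from glycogen, had 30.5, 33.0 and 27.6 FPKM in knockdown, against 11.9, 11.6 and 14.1 FPKM in control. Pygb changed by 1.22 on the log2 scale (SE 0.0973, limma adjusted p = 2.77e-05), and the groups did not overlap. Pygl, the liver form, had 1 read in 1 library of each group and none in the others. Gys1, the glycogen synthase of muscle and most tissues, had 16.2 ± 0.260 FPKM in knockdown and 12.3 ± 1.17 FPKM in control (SD, n = 3 each; log2 fold change 0.37, limma adjusted p = 0.00356). Ugp2, which makes the UDP-glucose that glycogen synthase uses, had 11.9 ± 0.769 FPKM in knockdown and 14.8 ± 1.75 FPKM in control (log2 fold change -0.28, limma adjusted p = 0.0302). The fall of Ugp2 was lost without knockdown replicate 1 (adjusted p = 0.0960) or 2 (0.0770), without control replicate 1 (0.0900) or 3 (0.0956), and with no filter on low values (0.0735).

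Other genes of sugar metabolism, from lists written by function, moved both ways as well. Of 68 genes, 33 reached 1 FPKM on average, of which 15 rose, 7 fell and 11 did not pass, with a median log2 fold change of 0.15. The share called, 66.7%, was near the 62.4% of all genes. Of 12 other hexose and monocarboxylate carriers and their chaperones, 5 could be tested, and of these 4 rose and 1 fell. Slc2a6, a hexose transporter of lysosomal membranes, had 12.1 ± 1.45 FPKM in knockdown and 3.36 ± 0.246 FPKM in control (log2 fold change 1.58, limma adjusted p = 9.29e-06). Slc2a9, known as a urate transporter, had 8.49 ± 1.05 FPKM in knockdown and 2.62 ± 0.412 FPKM in control (log2 fold change 1.39). Both are paralogues of Slc2a1, which fell. Slc16a8, a lactate transporter known from retinal pigment epithelium, had 0.845 ± 0.0647 FPKM in knockdown and 4.24 ± 0.525 FPKM in control (log2 fold change -1.50), so it fell with Slc16a1.

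Of 14 other glycogen genes tested, 6 rose, 2 fell and 6 did not pass, so 57.1% were called, against 62.4% of all genes. Gbe1, the branching enzyme, had 6.22 ± 0.423 FPKM in knockdown and 2.78 ± 0.199 FPKM in control. Phka2, a regulatory subunit of phosphorylase kinase, had 6.25 ± 0.149 FPKM in knockdown and 3.14 ± 0.678 FPKM in control. Stbd1, which tethers glycogen to membranes, fell to 6.13 ± 0.842 FPKM in knockdown, against 13.4 ± 0.434 FPKM in control. Their limma adjusted p ran from 4.88e-05 to 0.000446. Gbe1 and Phka2 rose, as did Gys1 and Pygb among the members.

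Of 13 tissue-restricted forms of the glycolytic enzymes, 3 were high enough to test and 1 passed, or 33.3%, against 62.4% of all genes. Pgam2, the muscle phosphoglycerate mutase, fell to 5.76 ± 0.611 FPKM in knockdown, against 12.5 ± 1.13 FPKM in control (log2 fold change -0.998, limma adjusted p = 6.12e-05), while its paralogue Pgam1 rose. Eno3, the muscle enolase, singled out after its values were seen because of its level, stood at 112 ± 5.49 FPKM in knockdown and 111 ± 6.82 FPKM in control (log2 fold change 0.01, SE 0.0750).

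Among 5 genes of gluconeogenesis and glucose phosphate handling that could be tested, 3 rose and none fell. That is 60.0% called, near the 62.4% of all genes. Pcx, the pyruvate carboxylase that replenishes oxaloacetate, had 13.8 ± 1.59 FPKM in knockdown and 7.63 ± 0.988 FPKM in control. Slc37a4, which carries glucose phosphate into the endoplasmic reticulum, had 7.44 ± 0.684 FPKM in knockdown and 4.61 ± 0.491 FPKM in control. G6pc3, a phosphatase there that frees glucose, had 23.1 ± 2.45 FPKM in knockdown and 18.03 ± 1.86 FPKM in control. In the list of the glycerol phosphate shuttle and glucose sensing, 2 of 6 rose and 3 fell, or 83.3% called. Gpd2, the mitochondrial enzyme of that shuttle, fell to 11.9 ± 1.29 FPKM in knockdown, against 17.4 ± 1.67 FPKM in control, and Mlx, a partner of glucose-sensing transcription factors, fell to 13.96 ± 1.16 FPKM in knockdown, against 19.4 ± 2.33 FPKM in control. Gpd1l, a cytosolic glycerol phosphate dehydrogenase, rose to 15.9 ± 0.365 FPKM in knockdown, against 10.7 ± 0.501 FPKM in control.

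**Figure D4:**
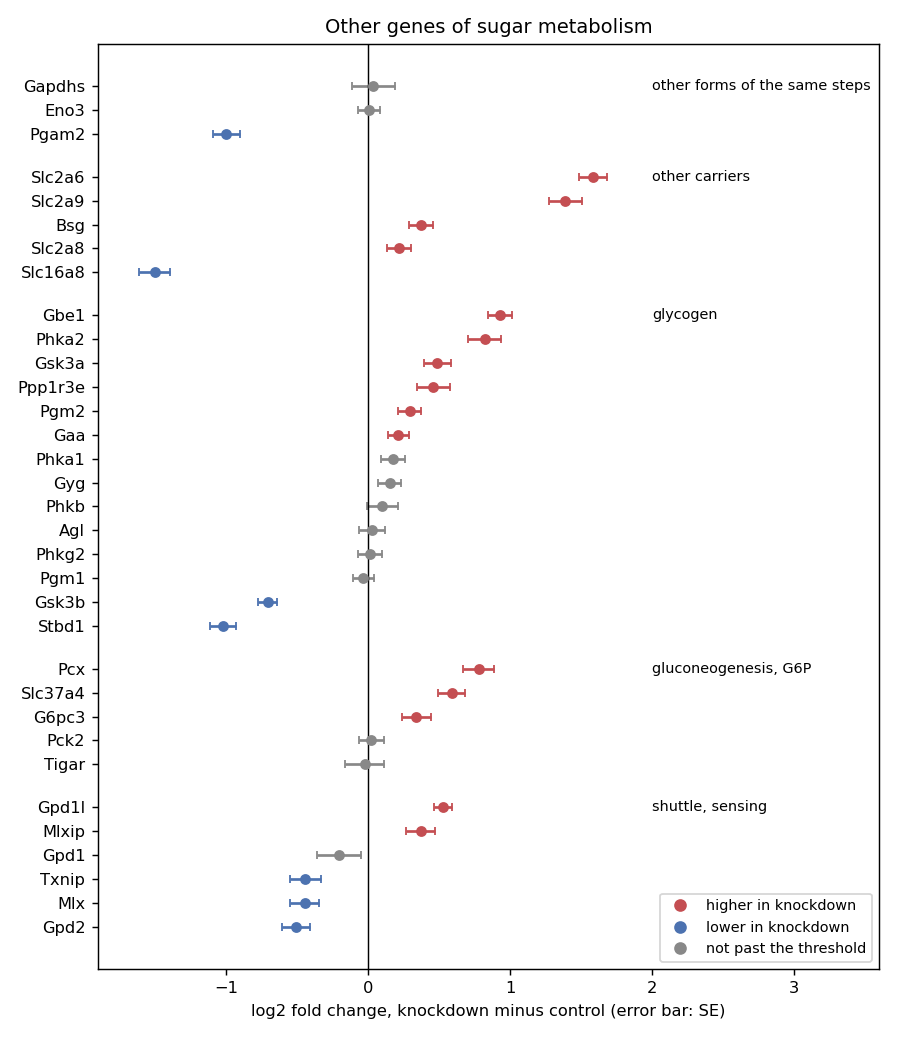
Log2 fold change (knockdown minus control) of the 33 tested genes of sugar metabolism outside the 32 members, grouped by list, with the SE from limma as error bar. Slc2a6 at 1.58 and Slc16a8 at -1.50 mark the ends of the range.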

How the data were processed

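RNA of 6 libraries labelled MIN6 was measured, 3 PP2Ac knockdown and 3 control. The authors deposited FPKM per Ensembl gene. The builds are GRCm38 and mm10, per the submitters' processing notes. No aligner, counter or strand setting is known for these values, so overlapping or near-identical genes may share or lose reads. Multiplied by gene length, 100% of the non-zero FPKM came to whole reads within 0.01, and these reads give the counts quoted; floors cover counting error only. limma 3.58.1 in R 4.3.3 (lmFit, then eBayes with its trend option) was run on log2(FPKM + 1), keeping genes that averaged at least 1 FPKM, with Benjamini-Hochberg adjustment over all of them. This scale understates the change of low genes. Shares and sums were computed in Python 3.11.15 and compared by exact permutation. The limma code was tested on simulated data.

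The members and lists were chosen with earlier results of these data known, so counts over them are descriptions. All members are named. Each library is given for members past the threshold with an absolute log2 fold change of at least 0.5 and for paralogues that moved in opposite directions. Each other list names up to 3 passing genes with the largest change. Alternatives were other pseudocounts, filters, scalings, gene sets and variance models, voom, a block for replicate number, and the omission of single libraries.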

Additional observations from a re-analysis of the deposited data

How the results depend on the processing

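Of 27 tested member rows, 22 kept their direction and their side of the threshold under all 16 alternatives that could be fitted (15 where a stricter filter removed the gene). The exceptions were Pkm, Ugp2, Pfkfb2, Gapdh and Slc16a3. No member that passed changed direction under any scaling. The balance over all genes did depend on it, with 3879 genes higher and 3388 lower in the main fit. Median-of-ratios scaling gave 3603 higher and 3639 lower (median log2 fold change -0.01). Without mitochondrial genes, rRNA and Gm23935, 3428 were higher and 3807 lower (median -0.04). Mitochondrial mRNA took 1.23% to 1.34% of reads in knockdown and 2.65% to 3.38% in control. Slc16a3, near 0, ran from -0.0801 to 0.0638 when 1 library was left out. With a filter at 5 FPKM, 2208 genes were lower, against 3388, and the median of the members was 0.52, against 0.37; fewer genes are tested there. Among single values of shares and step sums, 9 moved by more than the spread between libraries under the alternatives above, all with the same sign, as did the enolase shares with Eno3 counted; the groups stayed apart for 8 of the 9 step sums with mitochondrial genes, rRNA and Gm23935 removed and for 9 of 9 with median-of-ratios scaling. The replicate numbers are shared by the groups, but same-numbered libraries deviated together at -0.0107, 0.159 and 0.0518 across genes, so they were not taken as pairs; with a replicate block 15 members were higher and 7 lower, as without it, and 3919 genes were higher and 3444 lower. Depth limits Slc2a3, Ldhb and Pygl, at or under 3 reads per library.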
